A study of Rattus norvegicus with 13 samples.

Results

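The genes described here are the 2 brain receptors for corticosterone, Nr3c1 and Nr3c2, and 7 genes known to respond to them: Fkbp5, Sgk1, Klf9, Errfi1, Tsc22d3, Ddit4 and Sult1a1. They were chosen by name, as the probes whose gene name in the scanner files equals one of these symbols. The choice was made with earlier results of these data known, so shares set beside those of all genes are descriptions. All 9 were among the 17265 genes tested, and each had at least 1 probe well above background on all 13 arrays. RNA came from frontal cortex of male Sprague–Dawley rats and was read on 1-colour Agilent arrays 1 month after head trauma or sham surgery. Head acceleration rotational trauma (3 arrays) was set against rotational sham (3 arrays). Lateral fluid percussion trauma (3 arrays) was set against percussion sham (4 arrays). Sham rats had the anaesthesia and the surgery but no trauma, so the controls had been operated on too. No genotype was altered, and the ages of the rats and the hour of sampling are not given in the sources used here. Both models injure a whole animal, and the tissue was taken as bulk RNA, in which fewer cells of a type and less RNA per cell cannot be told apart.

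Corticosterone, the main glucocorticoid of the rat, enters cells and binds the mineralocorticoid receptor (Nr3c2) at low hormone levels and the glucocorticoid receptor (Nr3c1) at higher ones. The bound receptor moves into the nucleus and binds DNA, where it raises the transcription of a set of genes shared by many tissues. Several of their products feed back: Fkbp5 is a co-chaperone that lowers the receptor's affinity for hormone, and Tsc22d3 (GILZ) restrains inflammatory transcription. Sgk1 is a kinase that acts on ion channels and transporters, Klf9 a zinc finger transcription factor, Errfi1 an inhibitor of the epidermal growth factor receptor and Ddit4 (REDD1) an inhibitor of the growth kinase mTORC1. Sult1a1 is a sulfotransferase that conjugates phenols and catecholamines. In the brain these genes are known for their response to stress, in neurons, in glia and in cells of vessels and meninges.

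The array measured each gene with 60-base probes in the sense of the transcript, and positions below are as the scanner files give them (build rn4). Nr3c1, Nr3c2 and Ddit4 had 2 probes each, and the probe of higher mean signal was used. The 3 other probes are shown whole because they serve below as a second reading of the same gene. The capitals mark the last TGA that follows an open frame within the probe, which is the end of the coding sequence for all 3.
Ddit4, second probe, chr20:27253126-27253185, minus strand: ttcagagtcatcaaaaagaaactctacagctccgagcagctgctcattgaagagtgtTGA
Nr3c2, second probe, chr19:32530204-32530263, minus strand: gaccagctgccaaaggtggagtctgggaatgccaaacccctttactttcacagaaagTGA
Nr3c1, second probe, chr18:32375401-32375460, minus strand: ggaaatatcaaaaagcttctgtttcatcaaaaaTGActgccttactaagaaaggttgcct
The main probes of the 5 genes on which the results turn are shown by their first 30 bases. The main Ddit4 probe starts at base 1376 of the transcript, downstream of its second probe, which starts at base 817. The files give no exon or UTR for a probe.
Ddit4, main probe, chr20:27252567-27252626, minus strand: ggagcttcactactgacctgttcgaggcag
Sgk1, chr1:23501718-23501777, minus strand: acttgcaggacactacaatgtgggacattg
Errfi1, chr5:168025720-168025779, plus strand: agggacaccgctgccatgtcccaacaagct
Klf9, chr1:226445625-226445684, plus strand: ccgaatttacactaaacaagacagaccttc
Sult1a1, chr1:185829252-185829311, minus strand: ggaaagcaatcagtcccaacacctaaaaag

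Values are log2 signals scaled by subtracting each array's 75th percentile, so 0 is the upper quartile of an array. They compare arrays within a probe and never 1 probe with another. Arrays of a group correlated at 0.988 to 0.997. Each model had a slide to itself, on which trauma and sham occupied separate slide columns, the order being opposite between the slides. Slide column 2 held rotational trauma and percussion sham, and slide column 1 held rotational sham and percussion trauma. Within a model, group and slide column cannot be told apart. If slide column added the same amount on each slide, the average of the models would be free of it. Their difference would carry the amounts of both slides added together, and the difference between the shams would carry it as well. Between 67.0% and 72.5% of spots were well above background in slide column 2, and between 72.7% and 74.1% in slide column 1. All 8 neuronal markers and 8 of 9 astrocyte markers were measured, as were all 7 striatal markers. The summed scaled signal of the striatal markers (the sum of linear signals after scaling) was 5.71 to 8.21 in rotational trauma, against 5.79 to 15 in rotational sham. It was 4.45 to 5.88 in percussion trauma, against 4.99 to 5.34 in percussion sham. All 7 were lower in rotational trauma than in its sham, with a median log2 difference of -0.70. In percussion trauma 6 were lower and 1 higher, with a median of -0.07. None passed at an adjusted p under 0.05 in either model (limma), and their part in the results below was not tested.

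Neither receptor passed the test in either model. Nr3c1 lay between -3.40 and -3.32 in rotational trauma and between -3.57 and -3.34 in rotational sham, a log2 difference of 0.11 (95% interval -0.10 to 0.33, adjusted p = 0.927, limma). It lay between -3.67 and -3.49 in percussion trauma and between -3.90 and -3.56 in percussion sham, a log2 difference of 0.12 (95% interval -0.08 to 0.32, adjusted p = 0.651). The groups overlapped in both models. The second Nr3c1 probe gave log2 differences of 0.29 ± 0.29 (SE) in the rotational model and -0.17 ± 0.27 in the percussion model, so the 2 probes had opposite signs after percussion. It was well above background on 12 of 13 arrays. Rotational trauma 1 led its rotational value, at 1.007 from the sham mean, against -0.115 and -0.026 for rotational trauma 2 and 3. Nr3c2 averaged -1.06 ± 0.12 in rotational trauma, against -1.06 ± 0.13 in rotational sham (SD, n = 3 each). It averaged -1.22 ± 0.03 in percussion trauma (SD, n = 3), against -1.18 ± 0.03 in percussion sham (SD, n = 4). Its log2 differences were -0.01 (95% interval -0.18 to 0.17) and -0.04 (95% interval -0.20 to 0.12). The second Nr3c2 probe was well above background on 8 of 13 arrays only, and its log2 differences were -0.54 ± 0.25 and -0.04 ± 0.24 (SE).

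Fkbp5, the co-chaperone and known as a hormone-sensitive gene, had overlapping groups in both models. It averaged 0.61 ± 0.12 in rotational trauma, against 0.56 ± 0.06 in rotational sham (SD, n = 3 each), a log2 difference of 0.05 (95% interval -0.23 to 0.32, adjusted p = 0.994). In the percussion model its values were 0.47, 0.62 and 0.34 in trauma, against 0.30, 0.62, 0.81 and 0.71 in sham. The log2 difference was -0.13 (95% interval -0.39 to 0.12, adjusted p = 0.692).

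**Figure D1:**
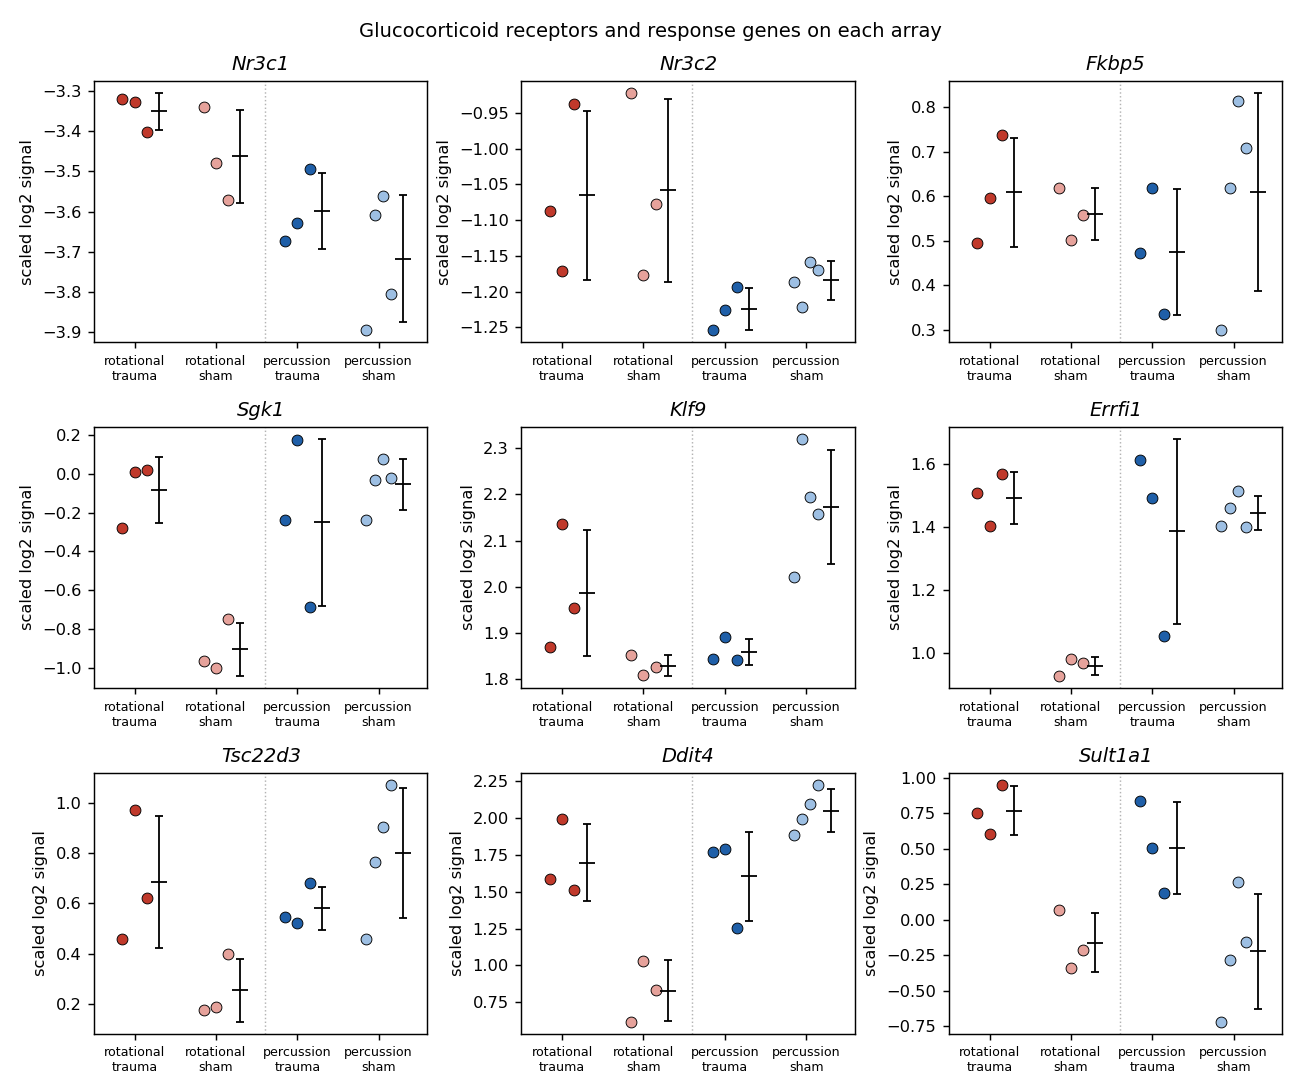
Scaled log2 signal (y axes, each with its own range) of the 9 genes on each of the 13 arrays, by group (x axes: rotational trauma, rotational sham, percussion trauma, percussion sham). Points are arrays, and bars show the group mean with its SD. Rotational sham has the lowest group mean for Sgk1, Klf9, Errfi1, Tsc22d3 and Ddit4, at 0.83 for Ddit4, and both trauma groups lie above their shams in mean for Sult1a1.

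In the rotational model the response genes other than Fkbp5 were higher in trauma than in sham, without passing the test. The log2 difference was above 0 for 8 of the 9 genes and for 39.8% of all genes. In 6 of the 9 genes (Sgk1, Klf9, Errfi1, Tsc22d3, Ddit4 and Sult1a1) every trauma array lay above every sham array, which held for 4.85% of all genes. The median log2 difference of the 9 genes was 0.43, beside -0.03 over all genes. None of the 9 passed the adjusted threshold in limma (0 of 9), at which 0.0116% of all genes were called. At an unadjusted p under 0.05, 5 of the 9 were higher and 0 lower, beside 2.85% and 4.01% of all genes. Because the genes were chosen with earlier results of these data known, their excess over all genes is a description and no independent support.

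Ddit4, the mTORC1 inhibitor, had the smallest adjusted p of the 9. Its values were 1.58, 2.00 and 1.51 in rotational trauma, against 0.62, 1.03 and 0.84 in rotational sham. The lowest trauma array thus lay above the highest sham array. The log2 difference was 0.87 ± 0.17 (SE), 1.83-fold, with an adjusted p of 0.230 in limma. The second Ddit4 probe read -2.35, -1.79 and -2.16 in rotational trauma, against -2.90, -2.70 and -2.85 in rotational sham. Both probes therefore separated the groups, and the second gave a log2 difference of 0.72 ± 0.22 (SE).

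Sgk1, the kinase, read -0.28, 0.01 and 0.02 in rotational trauma, against -0.96, -1.0 and -0.75 in rotational sham. The log2 difference was 0.82 ± 0.18 (SE), 1.77-fold, with an adjusted p of 0.335. Errfi1, the receptor inhibitor, read 1.51, 1.40 and 1.57 in rotational trauma, against 0.93, 0.98 and 0.97 in rotational sham. The sham arrays of Errfi1 lay within a narrow band, with an SD of 0.03, well below all trauma arrays. Its log2 difference was 0.54 ± 0.12 (SE), 1.45-fold, with an adjusted p of 0.335, which became 0.0414 when percussion trauma 3 was left out of the fit. That array is in neither rotational group, and the log2 difference stayed at 0.535 without it. Over 26 alternatives the adjusted p of Errfi1 in limma ran from 0.0414 to 0.869. The summed signal of 10 myelin genes, whose oligodendrocytes also express Sgk1, was 114 to 139 in rotational trauma and 106 to 130 in rotational sham, and 115 to 122 in percussion trauma and 105 to 124 in percussion sham. The sums overlapped, but 8 of the 10 myelin genes were higher in rotational trauma, beside 39.8% of all genes, with a median log2 difference of 0.39. Of the 10, 2 lay wholly above sham, beside 4.85% of all genes. At an unadjusted p under 0.05 in limma, 3 were higher and 0 lower, beside 2.85% and 4.01% of all genes. In percussion trauma 3 were higher and 7 lower, with a median of -0.06, and 52.8% of all genes were higher. There 1 lay wholly below sham, beside 3.82% of all genes, and 0 were called at an unadjusted p under 0.05. No myelin gene passed the adjusted threshold in limma in either model (0 genes). Their part in the Sgk1 result was not tested.

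Tsc22d3 and Klf9 separated the rotational groups by less. Tsc22d3 read 0.46, 0.97 and 0.62 in rotational trauma, against 0.18, 0.18 and 0.40 in rotational sham. The trauma arrays were spread more widely than the sham arrays, and the log2 difference was 0.43 ± 0.16 (SE, adjusted p = 0.60). Klf9 read 1.87, 2.13 and 1.95 in rotational trauma, against 1.85, 1.81 and 1.83 in rotational sham. The gap between the nearest arrays of Klf9 was small, and the log2 difference was 0.16 (95% interval -0.03 to 0.35, adjusted p = 0.797).

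In the percussion model 2 of the 9 genes were higher and 7 lower in trauma than in sham, and 52.8% of all genes were higher. The median of their log2 differences was -0.13, beside 0.01 over all genes. Every trauma array lay below every sham array for Klf9 and Ddit4 (2 of 9), which held for 3.82% of all genes. No gene of the 9 lay wholly above sham (0 of 9), beside 5.92% of all genes. None of the 9 passed in limma (0 of 9), and 0% of all genes were called. At an unadjusted p under 0.05, 1 of the 9 was higher (Sult1a1) and 2 were lower (Klf9 and Ddit4), beside 7.54% and 3.75% of all genes.

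Klf9 read 1.84, 1.89 and 1.84 in percussion trauma, against 2.02, 2.32, 2.19 and 2.16 in percussion sham. The trauma arrays lay close together and below all sham arrays. The log2 difference was -0.32 ± 0.08 (SE, adjusted p = 0.233). Ddit4 read 1.77, 1.79 and 1.26 in percussion trauma, against 1.89, 1.99, 2.10 and 2.23 in percussion sham. Its trauma arrays again lay below all sham arrays, with percussion trauma 3 lowest. The log2 difference was -0.45 ± 0.16 (SE, adjusted p = 0.358), and -0.27 without percussion trauma 3. The second Ddit4 probe gave -0.43 ± 0.20 (SE), although its groups overlapped there, since percussion trauma 2 at -2.0 lay above percussion sham 1 at -2.21.

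Sgk1, Errfi1 and Tsc22d3 overlapped between the percussion groups. Sgk1 read -0.24, 0.17 and -0.68 in percussion trauma, against -0.24, -0.03, 0.08 and -0.02 in percussion sham. Errfi1 read 1.61, 1.49 and 1.06 in percussion trauma, against 1.40, 1.46, 1.52 and 1.40 in percussion sham. Percussion trauma 3 was the lowest array of its group for both. Their log2 differences of -0.19 and -0.06 turned to 0.02 and 0.11 without that array. Tsc22d3 read 0.54, 0.52 and 0.68 in percussion trauma, against 0.46, 0.76, 0.90 and 1.08 in percussion sham, a log2 difference of -0.22 (95% interval -0.55 to 0.11, adjusted p = 0.599). The summed signal of 8 immediate early genes, which also respond to recent activity, was 17.2 to 26.3 in percussion trauma and 25.6 to 41.1 in percussion sham. In the rotational model that sum was 8.66 to 9.56 in trauma and 8.46 to 9.28 in sham. All 8 were lower in percussion trauma, with a median log2 difference of -0.64, and 0 passed the adjusted threshold. At an unadjusted p under 0.05 in limma 5 were lower, beside 3.75% of all genes. Wholly below sham lay 2 of the 8, beside 3.82% of all genes. In rotational trauma 3 were higher and 5 lower, with a median of -0.08. The part of these genes in the percussion differences was not tested.

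**Figure D2:**
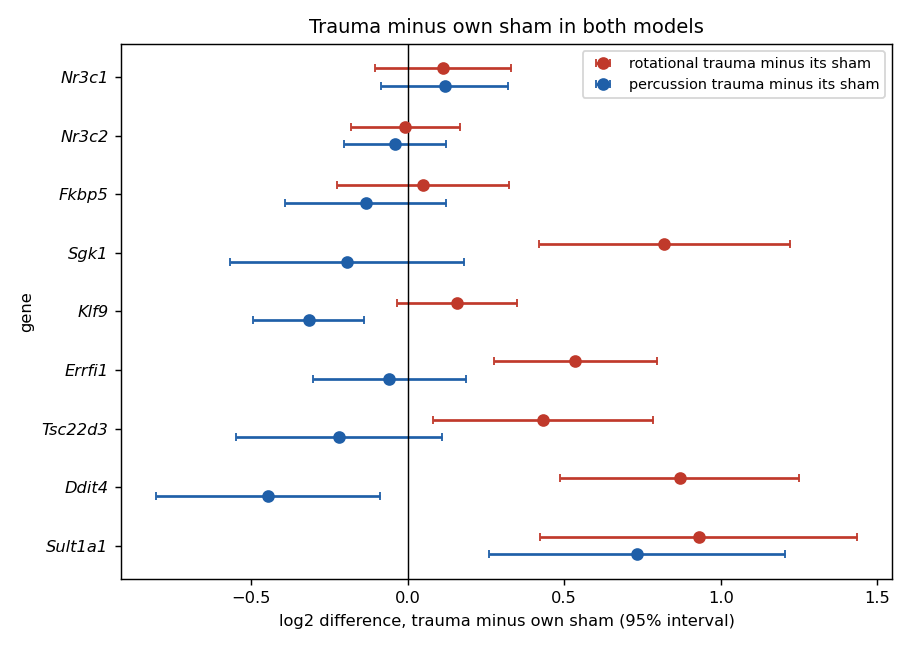
Log2 difference of trauma minus its own sham (x axis, with 95% intervals from limma) for the 9 genes (y axis), rotational model in red above percussion model in blue. The receptors and Fkbp5 lie near 0 in both models, Sgk1, Errfi1, Tsc22d3 and Ddit4 lie at 0.43 to 0.87 in the rotational model and below 0 in the percussion model, and Sult1a1 is above 0 in both.

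The test of the difference between the models, rotational effect minus percussion effect, had positive values for 8 of the 9 genes and 42.3% of all genes, with a median of 0.47 on the log2 scale, beside -0.04 over all genes. None of the 9 passed in limma (0 of 9), and 0% of all genes were called. At an unadjusted p under 0.05, 5 of the 9 were higher, beside 1.98% of all genes. Ddit4 had the largest of these differences among the 9, 1.31 ± 0.24 (SE, adjusted p = 0.154), and its second probe gave 1.15 ± 0.30. The differences were 1.01 ± 0.25 for Sgk1, 0.65 ± 0.22 for Tsc22d3, 0.59 ± 0.16 for Errfi1 and 0.47 ± 0.12 for Klf9 (SE), with adjusted p-values from 0.274 to 0.448. Each of these contrasts contains the sham difference, percussion minus rotational. That was 1.22 for Ddit4, 0.85 for Sgk1, 0.55 for Tsc22d3, 0.49 for Errfi1 and 0.345 for Klf9. The rotational and percussion trauma means were 1.70 and 1.61 for Ddit4, and -0.08 and -0.25 for Sgk1. They were 0.68 and 0.58 for Tsc22d3, 1.49 and 1.39 for Errfi1, and 1.985 and 1.858 for Klf9. For Klf9 and Ddit4 every array of slide column 2 lay above every array of slide column 1 on both slides, a pattern that 0.174% of all genes had. Within a model, group and slide column cannot be told apart for any gene. For Sgk1, Errfi1 and Tsc22d3 slide column 2 lay wholly above slide column 1 on the rotational slide, and the columns overlapped on the percussion slide. That overlap does not separate group from slide column. With no filter on dim probes the difference passed for Ddit4 (adjusted p = 0.00401), Sgk1 (0.0218), Klf9 (0.0278) and Errfi1 (0.0393), a setting in which 3780 genes were called. The log2 differences of these genes were unchanged, and their unadjusted p-values in limma were larger than in the main fit. For Ddit4 the unadjusted p was 0.000269 against 0.000169, and for Klf9 0.00339 against 0.00205. The number of genes tested without the filter is not given here, so no share stands beside these calls.

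Sult1a1, the sulfotransferase, was the one response gene higher in trauma in both models. It read 0.75, 0.60 and 0.95 in rotational trauma, against 0.07, -0.34 and -0.21 in rotational sham, a log2 difference of 0.93 ± 0.23 (SE, adjusted p = 0.424). It read 0.84, 0.51 and 0.19 in percussion trauma, against -0.72, -0.28, 0.27 and -0.16 in percussion sham, a log2 difference of 0.73 ± 0.22 (SE, adjusted p = 0.282). The rotational groups were apart, whereas percussion sham 3 lay above percussion trauma 3. The mean of both effects was 0.83 ± 0.16 (SE), 1.78-fold, with an adjusted p of 0.186, and the difference between the models was 0.20 (95% interval -0.50 to 0.89). None of the 9 genes passed for the mean of both effects (0 of 9, and 0% of all genes). Sult1a1, Errfi1 (0.24 ± 0.08) and Sgk1 (0.31 ± 0.13) were higher at an unadjusted p under 0.05, beside 5.10% of all genes.

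Genes of meninges and fibroblasts, of mural cells and of choroid plexus moved with Sult1a1. All 11 genes of that list were measured, at least 10 of them well above background on every array, and all 11 were higher in trauma in both models. Their summed signal was 83.5 to 130 in rotational trauma, against 36.8 to 72.5 in rotational sham. It was 86.6 to 159 in percussion trauma, against 41.2 to 67.5 in percussion sham, so the groups did not overlap in either model. The leading genes of the list were Ogn, a small proteoglycan, and Igf2, a growth factor of leptomeninges, with mean log2 effects of 1.71 ± 0.23 and 1.51 ± 0.25 (SE, adjusted p = 0.186 each). The summed signal of 7 mural genes, which mark pericytes and smooth muscle, was 3.12 to 4.72 in rotational trauma, against 2.32 to 2.78 in rotational sham. The mural sum was 4.03 to 6.18 in percussion trauma, against 3.10 to 3.82 in percussion sham. Of 7 choroid plexus and ependymal genes, 4 were tested (Kl, Folr1 and Clic6 were not), and all 4 were higher in trauma in both models. Their sum was 0.467 to 1.13 in rotational trauma, against 0.215 to 0.867 in rotational sham, which overlapped. It was 0.505 to 1.37 in percussion trauma, against 0.224 to 0.487 in percussion sham, which did not. Of 9 endothelial genes 7 were tested, 4 higher and 3 lower in rotational trauma (median log2 difference 0.03). In percussion trauma 6 were higher and 1 lower (median 0.14). After subtracting each slide's mean, the meningeal list had a Pearson r of 0.806 with Sult1a1 and 0.548 with Errfi1. The neuronal list had one of -0.653 with Sult1a1. The part of any of these cells in the Sult1a1 or Errfi1 result was not tested.

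**Figure D3:**
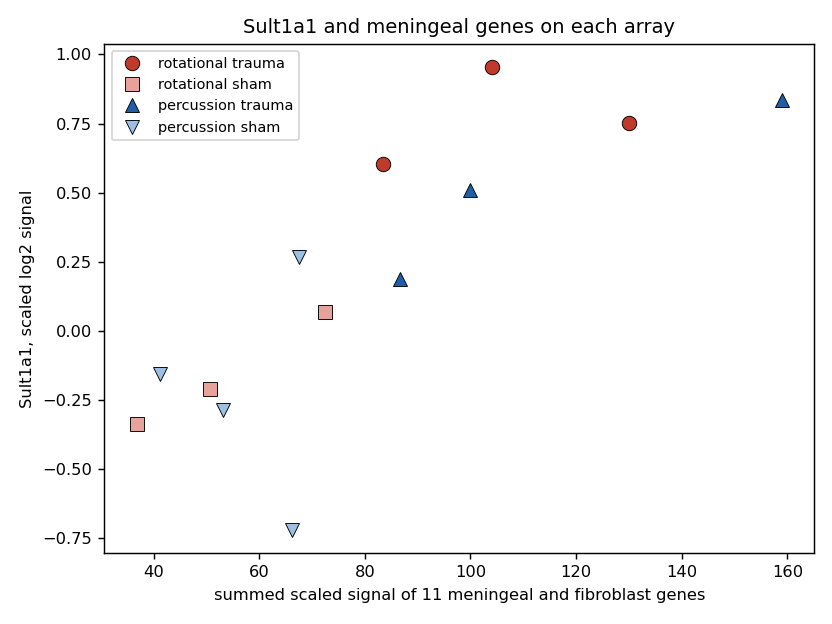
Sult1a1 (y axis, scaled log2 signal) against the summed scaled signal of the 11 meningeal and fibroblast genes (x axis) on each of the 13 arrays, with a symbol per group. The 6 trauma arrays lie at sums of 83.5 and above with Sult1a1 at 0.19 or above, and the 7 sham arrays lie at sums of 72.5 and below with Sult1a1 at 0.27 or below.

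The sham groups differed from each other in 5 of the 9 genes, all higher in percussion sham. This contrast runs between slides and between slide columns. Model, surgery, slide and slide column cannot be told apart in it, and 23.7% of all genes passed it. Of all genes, 9.85% passed as higher in percussion sham and 13.8% as lower. Ddit4 averaged 2.05 ± 0.15 in percussion sham (SD, n = 4) and 0.83 ± 0.21 in rotational sham (SD, n = 3), a log2 difference of 1.22 ± 0.16 (SE, adjusted p = 0.00137, limma), 2.33-fold. The second Ddit4 probe gave 0.92 ± 0.20 (SE, adjusted p = 0.0105). Sgk1 averaged -0.05 ± 0.13 in percussion sham and -0.90 ± 0.14 in rotational sham, a log2 difference of 0.85 (adjusted p = 0.00711). Errfi1 averaged 1.45 ± 0.05 in percussion sham and 0.96 ± 0.03 in rotational sham, a log2 difference of 0.49 (adjusted p = 0.0117). Klf9 averaged 2.17 ± 0.12 in percussion sham and 1.83 ± 0.02 in rotational sham, a log2 difference of 0.34 (adjusted p = 0.0132).

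Tsc22d3 averaged 0.80 ± 0.26 in percussion sham and 0.25 ± 0.13 in rotational sham, a log2 difference of 0.55 (adjusted p = 0.0242). Its call was lost without rotational sham 1 (adjusted p = 0.0784), rotational sham 2 (0.0768), percussion sham 3 (0.0521) or percussion sham 4 (0.0535). In all 5 genes every percussion sham array lay above every rotational sham array, which held for 16.2% of all genes. Nr3c1 was lower in percussion sham by the test's estimate, -0.26 ± 0.09 (SE), with an adjusted p of 0.0663 that became 0.0438 without percussion sham 3. Its second probe, well above background on 3 of 4 percussion sham arrays, gave 0.19 ± 0.27 (SE), of opposite sign. The intervals of the sham difference ran from -0.29 to 0.04 for Nr3c2, from -0.21 to 0.31 for Fkbp5 and from -0.54 to 0.41 for Sult1a1. The 8 immediate early genes were all higher in percussion sham, 7 of them past the threshold, with sums of 25.6 to 41.1 in percussion sham, against 8.46 to 9.28 in rotational sham. The sum of the 7 striatal markers was 4.99 to 5.34 in percussion sham, against 5.79 to 15 in rotational sham. All 7 were lower in percussion sham, 3 of them past the threshold, with a median log2 difference of -0.97. Over all genes 9.85% passed as higher and 13.8% as lower. The part of either list in the sham difference was not tested.

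Set in order over the 4 groups, rotational sham lay wholly below the other groups for Sgk1, Errfi1, Tsc22d3 and Ddit4. The group means of Ddit4 were 0.83 in rotational sham, 1.61 in percussion trauma, 1.70 in rotational trauma and 2.05 in percussion sham, and the ranges of percussion trauma and rotational trauma overlapped. For Errfi1 the rotational sham mean of 0.96 was followed by 1.39 in percussion trauma, 1.45 in percussion sham and 1.49 in rotational trauma, and these 3 upper groups overlapped. For Sgk1 the order was -0.90 in rotational sham, -0.25 in percussion trauma, -0.08 in rotational trauma and -0.05 in percussion sham, and the 3 upper groups overlapped as well. Tsc22d3 had means of 0.25 in rotational sham, 0.58 in percussion trauma, 0.68 in rotational trauma and 0.80 in percussion sham, and the 3 upper groups overlapped. For Klf9, rotational sham at 1.83 and percussion trauma at 1.86 were neighbours within their spread, followed by 1.99 in rotational trauma and 2.17 in percussion sham. Orders across the models also cross slides.

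Other genes of the pathway were taken from 3 lists, and none of their genes passed in either trauma comparison in limma (0 genes). The lists, too, were chosen with earlier results of these data known. Of 32 further genes induced by glucocorticoids, 27 were tested. In the rotational model 19 were higher and 8 lower, with a median log2 difference of 0.24, and 11 of the 27 were higher at an unadjusted p under 0.05 and 0 lower, beside 2.85% and 4.01% of all genes. Trauma and sham did not overlap for 11 of them above and 2 below, beside 4.85% and 10.6% of all genes. Cebpd, a transcription factor of the C/EBP family, read 0.54, 0.21 and 0.30 in rotational trauma, against -0.45, -0.26 and -0.40 in rotational sham. Its groups were apart, and its log2 difference was 0.72 ± 0.10 (SE, adjusted p = 0.075). Nfkbia, the inhibitor of NF-kB, had a log2 difference of 0.73 ± 0.21 (adjusted p = 0.493), and Gjb6, a connexin of astrocytes, one of 0.49 ± 0.12 (adjusted p = 0.395).

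In the percussion model 12 of these 27 genes were higher and 15 lower, with a median of -0.03. At an unadjusted p under 0.05, 0 were higher and 2 lower, beside 7.54% and 3.75% of all genes. These were Dusp1, a phosphatase that switches off MAP kinases and also an immediate early gene, and Nfkbia. Dusp1 read -3.19, -2.97 and -3.72 in percussion trauma, against -2.31, -2.47, -2.84 and -2.86 in percussion sham, a log2 difference of -0.67 ± 0.18 (SE, adjusted p = 0.240). Nfkbia read -0.33, -0.25 and -0.70 in percussion trauma, against -0.06, -0.12, -0.02 and 0.59 in percussion sham, a log2 difference of -0.53 ± 0.19 (SE, adjusted p = 0.358). Every trauma array of both genes lay below every sham array. Between the shams, Dusp1, Arrdc3, Bcl6 and Rasd1 were higher in percussion sham past the threshold, by log2 differences of 0.93, 0.82, 0.53 and 0.51, and 0 of the 27 were lower past it. Over all genes 9.85% were higher and 13.8% lower past it.

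**Figure D4:**
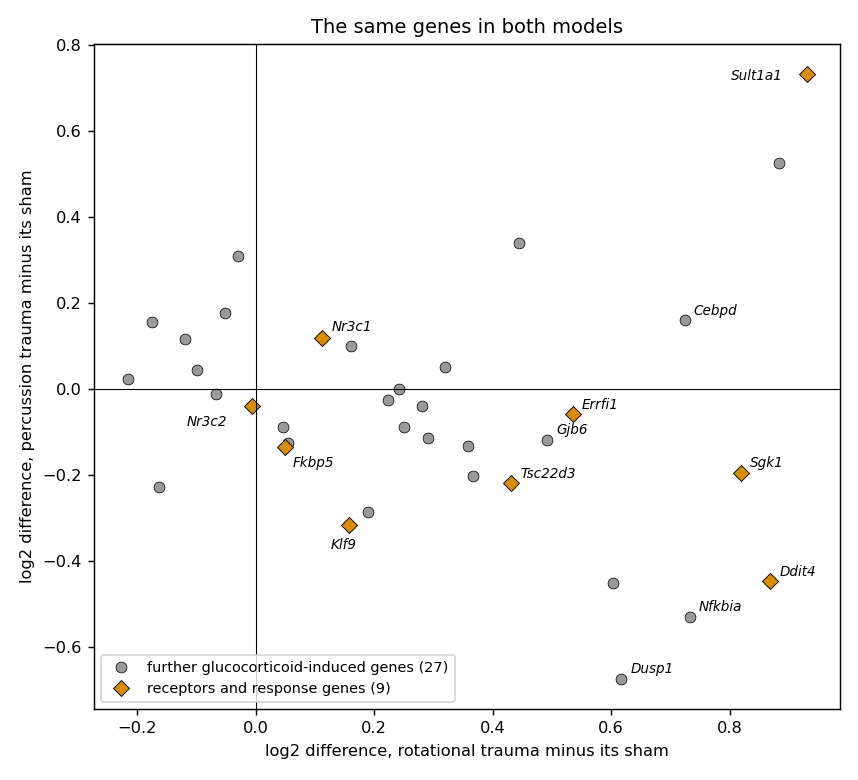
Log2 difference of rotational trauma minus its sham (x axis) against that of percussion trauma minus its sham (y axis) for the 9 receptors and response genes (diamonds) and the 27 further glucocorticoid-induced genes (grey circles). Ddit4, Nfkbia and Dusp1 lie to the lower right, with rotational differences of 0.87, 0.73 and 0.62 and percussion differences of -0.45, -0.53 and -0.67, and Sult1a1 lies to the upper right.

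The list of hormone access and receptor machinery held enzymes, chaperones, coregulators and stress peptides, of which 18 of 20 genes were tested. In rotational trauma 7 were higher and 11 lower (median log2 difference -0.04), and in percussion trauma 8 were higher and 10 lower (median -0.05). At an unadjusted p under 0.05 none of the 18 was called in either model (0 genes). Crhr1, the receptor for corticotropin-releasing hormone, and Ncoa1, a coactivator, lay below sham without overlap in the rotational model, by -0.23 ± 0.16 and -0.06 ± 0.07 (SE). These 2 of 18 genes are near the share of all genes that did so, 10.6%. H6pd, which supplies the cofactor for regenerating active hormone in the endoplasmic reticulum, lay above sham without overlap in the percussion model, by 0.20 ± 0.10. That 1 of 18 is also near the share of all genes, 5.92%. Between the shams 5 of the 18 passed, beside 23.7% of all genes: Pomc (0.38) and Ncoa3 (0.35) were higher, and H6pd (-0.78), Crhr1 (-0.50) and Ptges3 (-0.20) were lower in percussion sham.

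Of 17 relatives and paralogs of the 9 genes, 12 were tested. In rotational trauma 6 were higher and 6 lower, and in percussion trauma 8 were higher and 4 lower. Fkbp1a, a relative of Fkbp5, was the 1 gene of the 12 that lay below sham without overlap in the rotational model, beside 10.6% of all genes, by -0.14 ± 0.07 (SE). Klf15, a Klf9 relative that is itself induced by glucocorticoids, read 0.23, 0.18 and 0.07 in percussion trauma, against 0.51, 0.49, 0.56 and 0.58 in percussion sham. Klf15 was the 1 gene of the 12 wholly below sham there, beside 3.82% of all genes, by -0.38 ± 0.16 on the log2 scale (SE, adjusted p = 0.412). Between the shams 5 of the 12 passed, beside 23.7% of all genes. Klf13 (1.61), Klf15 (0.89) and Tsc22d2 (0.30) were higher in percussion sham past the threshold, and Sult4a1 (-0.45) and Fkbp1a (-0.31) were lower. One array led the Klf13 value, with percussion sham 1 at -2.60 and the other percussion shams between -4.02 and -3.85, against -5.47 to -4.94 in rotational sham.

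Genes whose pattern was most like each of the 9 were ranked by Pearson r over the 13 arrays after subtracting each slide's mean, among 12544 genes with a symbol. The arrays share slides and slide columns, and group differences within a slide are part of this measure, so r is a description. Plekhf1 ranked first for Sgk1 (r = 0.934) and Ddit4 (r = 0.872) and second for Errfi1 (r = 0.886). The second for Sgk1 was Errfi1 itself (r = 0.881), and the second for Ddit4 was Nfkbia (r = 0.866). The first for Klf9 was Tubg1 (r = 0.953), for Tsc22d3 Il33 (r = 0.939), for Errfi1 Coq10b (r = 0.888) and for Sult1a1 Ahnak (r = 0.893). For Fkbp5 it was Ptpn1 (r = 0.902), for Nr3c1 Fchsd2 (r = 0.895) and for Nr3c2 Asmt (r = 0.885). Within the 9 genes, Sgk1 and Ddit4 had r = 0.863 and Errfi1 and Ddit4 r = 0.798, whereas the receptors had r = 0.0565 with each other.

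The glucocorticoid receptor is known to bind palindromes of the form ACANNNTGT and half-sites of the form AGAACA. Promoter windows from RefSeq on GRCr8, from 250 bases before to 50 bases after a start site, matched 8 of the 9 genes by symbol, in 13 windows. The palindrome, which reads the same on both strands, occurred in 6.86% of all 33469 promoter windows, and the half-site, searched on both strands, in 20.7%. Of the 13 windows, 1 held the palindrome, that of the start site numbered 2 of Tsc22d3, and 1 held the half-site, that of Sult1a1. Both are shown with 10 bases on each side, in the sense of the gene, with the match in capitals.
Tsc22d3, 183 bases before the start site, chrX:109065595-109065623, minus strand: cgctcaggggACACCCTGTgagccagccc
Sult1a1, 89 bases before the start site, chr1:190706186-190706211, minus strand: ttgtttctggAGAACAgccagtccta
These letters were not in the windows of Nr3c1, Fkbp5, Sgk1, Klf9, Errfi1 and Ddit4. The matches are descriptions of the sequence and not measured binding sites.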

How the data were processed

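Per the file headers, the authors extracted the arrays with Agilent Feature Extraction 10.5.1.1. The processed signal in the deposited files is an intensity, background-subtracted and detrended. A normalised log2 table that the authors deposited was used as an alternative. Control spots (4259 of 62976) and outlier spots were left out, and spots of a probe were averaged on the log2 scale, minus each array's 75th percentile. A probe was above background where more than a share of 0.5 of its spots were, and was kept if so on every array of at least 1 group. The probe of highest mean stood for a gene, which gave 17265 genes.

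The model in limma 3.58.1 (R 4.3.3) had a mean for each group over all 13 arrays. The p-values of its 5 two-sided contrasts were adjusted after Benjamini and Hochberg over the genes tested (threshold 0.05). The scripts were tested on simulated data. Replicates are labelled as separate samples, so p-values measure the spread between these samples, and the number of arrays limits the precision. Alternatives changed background correction, scaling, filter, probes, samples and blocks. Named pathway genes were those past the threshold in any contrast, and up to 3 per trauma contrast of smallest p without overlap. The genes, lists and tests were chosen with earlier results of these data known. Same-numbered trauma and sham arrays did not deviate together in every pair.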

Additional observations from a re-analysis of the deposited data

How the results depend on the processing

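No alternative moved any of the 9 genes past the threshold in the mean of both effects, and quantile normalisation, the one alternative tried for the shams besides leaving out an array, ended the call of none of the 5 genes that differed between them. Of 1044 values of single genes under an alternative, 1005 kept their direction and side of the threshold. With no filter on dim probes Ddit4 passed in the rotational model (adjusted p = 0.0463) and Klf9 in the percussion model (0.039). In that setting 356 genes were called in the rotational model and 2979 in the percussion model. Their log2 differences there were those of the main fit. Their unadjusted p-values in limma were larger, 0.000584 against 0.000384 for Ddit4 and 0.00393 against 0.0024 for Klf9.

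The count of all genes called in the rotational model was 2. It became 4 with normexp, 0 with quantile normalisation, 4 in the authors' deposited log2 table, 356 with no filter, 6 with the 2 groups of the model alone, 5 with a variance trend, 0 with array row as a block and 0 to 12 without 1 array. The percussion count of 0 became 2979 with no filter, 4 with array row as a block and 0 to 5 without 1 array. The mean of both, 0, became 5 with array row as a block and 0 to 21 without 1 array. The difference, 0, became 3780 with no filter, 1 with a variance trend and 0 to 8 without 1 array. The sham count of 4088 ran from 1867 to 4560. The fit with a replicate block called 0 genes in the rotational model and 28 for the mean of both. Replicate numbers do not pair the samples by the labels, and same-numbered deviations correlated at 0.0208 to 0.267 in the rotational model and -0.0232 to 0.283 in the percussion model. The number of the 9 genes with percussion trauma wholly below sham, 2, became 1 with the mean of a gene's probes and 2 to 4 without 1 array. It was 6 to 7 for rotational trauma wholly above sham.

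Values near 0 changed sign. The Nr3c1 difference between the models was 0.028 with quantile normalisation, 0.044 with median scaling, 0.012 in the authors' deposited table, 0.224 with the mean of probes, 0.021 with a replicate block and -0.062 to 0.054 without 1 array. That of Nr3c2 was -0.002 with normexp, -0.232 with the mean of probes and -0.031 to 0.101 without 1 array. The Nr3c1 percussion value was -0.024 with the mean of probes, and the Nr3c2 rotational value 0.003 with array row as a block. Without 1 array, the Nr3c2 values ran from -0.071 to 0.061 in the rotational model and from -0.055 to 0.011 in the mean of both. So did Fkbp5 from -0.014 to 0.107 in the rotational model and from -0.017 to 0.154 between the shams, Sult1a1 from -0.227 to 0.102 between the shams, Sgk1 from -0.406 to 0.024 and Errfi1 from -0.171 to 0.108 in the percussion model. The cause was not tested.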
